A study of Mus musculus with 12 samples.

Results

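Interferon-stimulated antiviral genes were read in C2C12 cells, an immortalized mouse myoblast line, after knockdown of BRM or BRG1, the alternative ATPases of SWI/SNF chromatin remodellers. The list holds 42 genes, taken by name with older aliases matched, and 41 of them had a named probe on the array. A probe was used when 2 or more of the 12 arrays, from any of the 6 groups, gave it a detection p below 0.05. By this rule 24 of the 42 listed genes were measured, through 37 probes, among 10842 measured genes in all. None of the 24 (0) passed the rule through siBRG1 arrays alone.

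The cells received 100 nM of a scrambled siRNA (siSCR), of siRNA against BRM (siBRM, gene Smarca2) or of siRNA against BRG1 (siBRG1, gene Smarca4), and were collected 18 h or 48 h after growth medium had been replaced by low-serum differentiation medium. Each of the 6 groups has 2 arrays, and total RNA was hybridised to Illumina mouse BeadChips. All groups were transfected, so the siSCR arrays carry siRNA and transfection reagent too, and no untransfected cells were analysed here. The labels name 1 siRNA label per target and do not say whether the 2 replicates were separate cultures, so a p-value here reflects the spread among these arrays, which may be technical. A response to loss of BRG1 and a response to the siBRG1 molecules themselves cannot be told apart in this design.

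Interferons are secreted proteins, and those of type I are released by cells whose sensors detect foreign nucleic acid. Type I interferons act through the receptor chains Ifnar1 and Ifnar2, the kinases Jak1 and Tyk2 and a complex that holds Stat2 and Irf9 and binds the interferon-stimulated response element (ISRE). Interferon gamma acts through the gamma-activated site (GAS) of its target genes and through Irf1. The genes so induced restrict viruses at many steps, among them RNA decay, translation block, protein modification by Isg15 and attack on pathogen vacuoles by guanylate-binding proteins.

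The promoters of 6 members are shown first, as examples that differ in the motifs they hold. They are not the 6 with the largest differences. Over both times the log2 difference from siSCR was 0.74 for Gbp3 and 0.40 for Ifit3, against 1.24 for Oasl2, which is not shown. The sequences are RefSeq windows of 300 bases around the gene start, of build GRCm38.p6, written 5′ to 3′ on the gene's strand. Capitals mark matches to GAAANNGAAA, the core of the ISRE, on either strand, except for Irf1, where they mark TTCNNNGAA, the GAS pattern. Neither pattern was found in the Lgals3bp window.
Isg15 promoter, chr4:156200769-156201068, minus strand: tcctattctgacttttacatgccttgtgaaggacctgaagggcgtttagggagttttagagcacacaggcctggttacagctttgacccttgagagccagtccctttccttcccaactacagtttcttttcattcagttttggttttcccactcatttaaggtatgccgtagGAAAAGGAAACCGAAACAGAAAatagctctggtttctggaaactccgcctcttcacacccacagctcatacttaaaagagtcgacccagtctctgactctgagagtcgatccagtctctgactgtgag
Gbp2 promoter, chr3:142620413-142620712, plus strand: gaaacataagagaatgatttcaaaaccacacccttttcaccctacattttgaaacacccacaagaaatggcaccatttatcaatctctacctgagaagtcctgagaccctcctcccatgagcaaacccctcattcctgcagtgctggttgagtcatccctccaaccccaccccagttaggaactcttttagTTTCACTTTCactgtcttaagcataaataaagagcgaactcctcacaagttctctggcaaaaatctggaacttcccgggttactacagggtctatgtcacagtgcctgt
Gbp3 promoter, chr3:142559794-142560093, plus strand: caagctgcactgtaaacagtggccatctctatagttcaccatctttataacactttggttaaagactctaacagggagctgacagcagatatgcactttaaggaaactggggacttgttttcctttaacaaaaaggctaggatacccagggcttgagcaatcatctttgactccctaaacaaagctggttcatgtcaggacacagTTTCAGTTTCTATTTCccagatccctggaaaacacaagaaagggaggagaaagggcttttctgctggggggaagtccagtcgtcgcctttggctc
Ifit3 promoter, chr19:34583279-34583578, plus strand: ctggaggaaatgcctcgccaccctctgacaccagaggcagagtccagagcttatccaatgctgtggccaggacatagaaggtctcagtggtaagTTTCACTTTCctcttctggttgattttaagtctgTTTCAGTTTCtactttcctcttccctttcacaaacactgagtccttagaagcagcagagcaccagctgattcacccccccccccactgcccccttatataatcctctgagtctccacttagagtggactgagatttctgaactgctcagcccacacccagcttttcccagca
Irf1 promoter, chr11:53769764-53770063, plus strand: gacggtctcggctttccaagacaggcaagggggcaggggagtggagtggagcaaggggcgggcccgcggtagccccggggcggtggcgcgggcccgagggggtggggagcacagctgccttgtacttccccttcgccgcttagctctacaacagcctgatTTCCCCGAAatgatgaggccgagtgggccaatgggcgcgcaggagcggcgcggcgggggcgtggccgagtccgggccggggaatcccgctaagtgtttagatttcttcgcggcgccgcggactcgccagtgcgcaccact
Lgals3bp promoter, chr11:118401910-118402209, minus strand: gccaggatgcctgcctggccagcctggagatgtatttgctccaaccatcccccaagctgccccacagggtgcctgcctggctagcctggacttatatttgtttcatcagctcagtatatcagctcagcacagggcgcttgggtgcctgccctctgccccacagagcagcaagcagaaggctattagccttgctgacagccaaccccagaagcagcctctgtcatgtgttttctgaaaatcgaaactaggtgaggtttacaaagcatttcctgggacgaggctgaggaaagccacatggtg

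The 3 ISRE matches of Isg15 overlap each other and begin 78, 72 and 66 bases before the gene start. The single match of Gbp2 begins 59 bases before it, the 2 overlapping matches of Gbp3 at 45 and 39 bases, and the 2 separate matches of Ifit3 at 156 and 122 bases. Of the 32 members with a window in the RefSeq table, 16 held an ISRE match, against 1079 of 27025 genes with a window (3.99%). A GAS match stood in 11 of the 32 (34.4%), against 9.55% of all genes. Among the 21 measured members with a window, 11 (52.4%) held an ISRE match and 9 (42.9%) a GAS match. These are matches of letters in 1 window per transcript start and do not show that a factor bound there. A window without a match, such as those of Lgals3bp, Irf9, Oasl2 and Dtx3l, says only that these letters are not in it.

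Signals are given on a log2 scale after background correction and quantile normalization, and differences are log2 differences with the standard error of the limma model after ±. The arrays of replicate 1 lie on 2 BeadChips, 1 for each time, and all arrays of replicate 2 lie on the last BeadChip. Same-numbered arrays deviated together from the means of their groups (r between 0.449 and 0.825 for 15 pairs of groups, within and across the times). This shows a shift between replicates 1 and 2 and does not by itself pair arrays within a time. By replicate number, time and BeadChip the arrays are read in sets of 3 (siSCR, siBRM and siBRG1 on 1 BeadChip), 4 sets in all. A difference between siRNAs given below for a single replicate was therefore taken within 1 BeadChip. On each BeadChip the siBRG1 array of a set lies after the siBRM array and the siSCR array before it, so position and siRNA cannot be told apart. The mean signal per array ran from 513 to 1644 and the share of probes detected from 27.3% to 39.4%, both lower on the replicate 1 arrays. Of the 24 measured members, between 13 and 22 were detected on an array.

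The siRNA targets were checked first. The Smarca4 probe read 7.46 and 9.09 with siSCR and 7.84 and 8.98 with siBRM at 18 h, against 6.09 (at background) and 8.04 with siBRG1. At 48 h it read 8.60 and 9.10 with siSCR and 8.20 and 9.25 with siBRM, against 6.14 (at background) and 7.68 with siBRG1. It was lower with siBRG1 in all 4 sets, by -1.57 ± 0.61 over both times. Smarca2 was lower with siBRM than with siSCR in all 4 sets, by -0.71 and -1.63 at 18 h and by -0.71 and -0.48 at 48 h. With siBRG1 it read 10.42 and 9.46 at 18 h, against 10.44 and 9.30 with siSCR. At 48 h it was higher with siBRG1 in both replicates, 11.05 and 9.89 against 10.20 and 9.21 with siSCR. The myoblast markers were present: 7 of 8 were measured and 6 were detected on all 12 arrays, with Myf5 on none (0).

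Many of the listed genes were not expressed at a level the arrays could register. No probe of 13 members was detected on any array: the transcription factor Irf7, the RNA-binding Ifit1, the oligoadenylate synthetases Oas1a, Oas2, Oas3 and the related Oasl1, the GTPases Mx1, Gbp6 and Gbp7, the RNA sensors Ifih1 and Dhx58, the ADP-ribosyltransferase family member Parp9 and the Stat interactor Nmi. The Isg15 protease Usp18, the GTPases Ifi47 and Iigp1 and the apoptosis regulator Xaf1 were each detected on 1 array at most, and Ifi44 had no named probe. For these genes a change below the detection limit was not detectable. At the other end, 11 members were detected on all 12 arrays: Irf1, Ifit2, Gbp2, Irgm1, Dtx3l, Trim25, Ifitm3, Lgals3bp, Eif2ak2, Zbp1 and Adar. Isg20, Mx2, Rsad2 and Gbp3 were measured on 2 to 5 arrays only.

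With siBRG1 a subset of the measured members read higher than with siSCR at both times. The guanylate-binding protein Gbp2 was 3.73-fold higher over both times, the secreted glycoprotein Lgals3bp 3.23-fold and the ubiquitin-like modifier Isg15 at least 2.51-fold, with 1 siSCR array of Isg15 at background and set to that array's lowest detected signal. Oasl2, Parp14, Irf1, Irf9, Dtx3l and Gbp3 followed with differences between 0.74 and 1.24, while the other measured members lay between -0.52 (Bst2) and 0.69 (Igtp). Over both times 20 of the 24 had a positive difference, with a median of 0.39 (0.22 on the authors' values), and 53.1% of all measured genes had one, with a median of 0.02. The members were chosen with earlier results of these data known, so no contrast of members with all genes, here or below, is an independent test. 7 of the 24 differed by more than 1 on the background-corrected scale, as 2.27% of all genes did. On the authors' values Lgals3bp (1.39), Gbp2 (1.07) and Irf1 (1.03) still did, but Isg15 stood at 0.92. Over the settings tried, the lowest differences of Oasl2, Parp14 and Irf9 were 0.55, 0.49 and 0.50. The share of all genes beyond 1 on the authors' values was not counted.

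None of the members passed limma's moderated test of siBRG1 against siSCR in the model without a block (0 of 24 at 18 h, at 48 h and over both times, adjusted p = 1), and none of the 10842 genes did (0%). At an unadjusted p under 0.05 and in either direction, that model had 1 member at 18 h (1.17% of all genes), 5 at 48 h (2%) and 6 over both times (2.72%). With the BeadChip as a fixed block, limma again called 0 members, with 5 members at an unadjusted p under 0.05 at 18 h (6.05%), 10 at 48 h (10.6%) and 9 over both times (11.4%). With the BeadChip as a random block, Lgals3bp and Gbp2 rose over both times (limma adjusted p = 0.0276 and 0.0427), as 0.231% of all genes did. At 18 h and at 48 h alone the random block called 0 members (0.0738% of all genes called higher at 48 h). Over both times the lowest limma adjusted p of Lgals3bp was 0.00751, with the fixed block and no background correction. For Gbp2 it was 0.00863, with the fixed block and median scaling. Both differences were positive in all 38 settings tried, but these are not 38 separate tests of the sign. With all arrays kept, a block leaves these differences unchanged, and so does leaving out a siBRM array. The authors' values and those without background correction gave the same differences (1.39 and 1.07).

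The calls moved with the scale on which the BeadChip block was applied. On the authors' normalized values, limma with the fixed BeadChip block called 3 members higher with siBRG1 than with siSCR at 48 h (Gbp2, Lgals3bp and Isg15, 0.424% of all genes) and 4 over both times (the same 3 and Irf1, 0.553%). Over both times their differences on that scale were 1.07, 1.39, 0.92 and 1.03 (limma adjusted p = 0.0209, 0.00757, 0.022 and 0.0427 for Gbp2, Lgals3bp, Isg15 and Irf1). With median scaling in place of quantile normalization and the same block, 5 were called at 48 h (those 3 with Oasl2 and Parp14, 0.424%) and 4 over both times (Gbp2, Lgals3bp, Isg15 and Parp14, 0.387%). Against siBRM the authors' values gave 3 members at 48 h (0.341%) and 3 over both times (0.424%), again Gbp2, Lgals3bp and Isg15, and median scaling gave these and Parp14 at 48 h (0.332%) and over both times (0.304%).

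**Figure D1:**
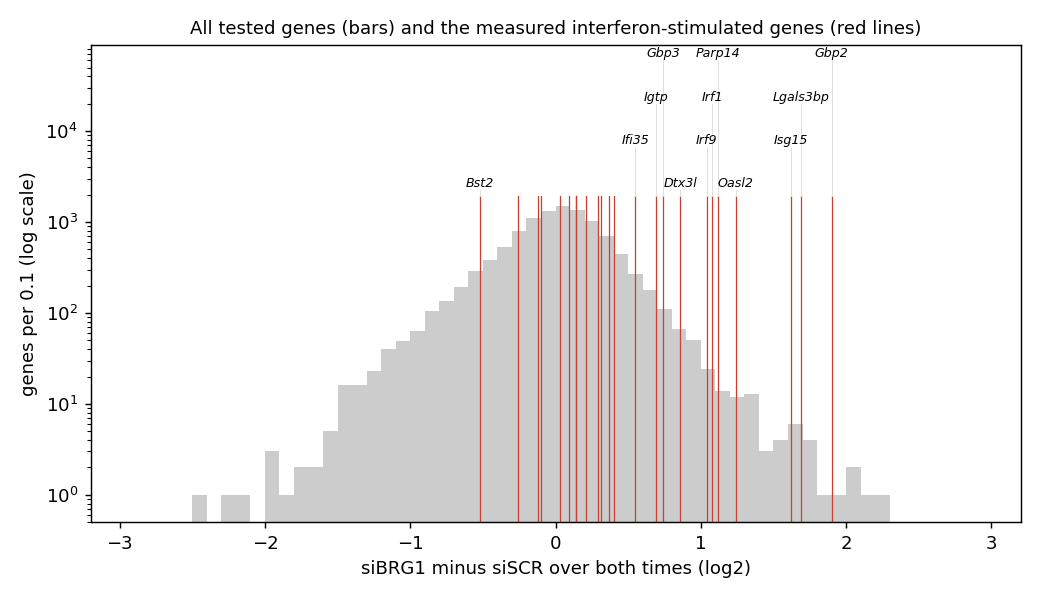
Differences between siBRG1 and siSCR over both times for all 10842 measured genes (grey bars, number of genes per 0.1 on a logarithmic axis) and for the 24 measured interferon-stimulated genes (red lines, the 12 largest absolute differences named). The member median is 0.39 and that of all genes 0.02; Gbp2, Lgals3bp and Isg15 lie in the right tail, where 0.0553%, 0.101% and 0.148% of all genes lie at or above them.

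Another reading that needs no model is whether the 2 siBRG1 arrays both lay above the 2 siSCR arrays. At 18 h this held for 5 of the 24 members (7% of all genes): Lgals3bp, Isg15, Irf1, Irf9 and Dtx3l. At 48 h it held for 10 (10.5% of all genes): the same 5 with Gbp2, Oasl2, Parp14, Ifit3 and Ifitm3. The reverse order was seen for 1 member at 18 h (8.25% of all genes), Rsad2, which was at background on all 4 arrays, and for 0 at 48 h (10.5%). Within sets, 9 of the 24 were higher with siBRG1 in all 4 (12% of all genes) and 0 were lower in all 4 (10.1%). The 9 were Gbp2, Gbp3, Lgals3bp, Isg15, Dtx3l, Parp14, Irf1, Irf9 and Ifi35.

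**Figure D2:**
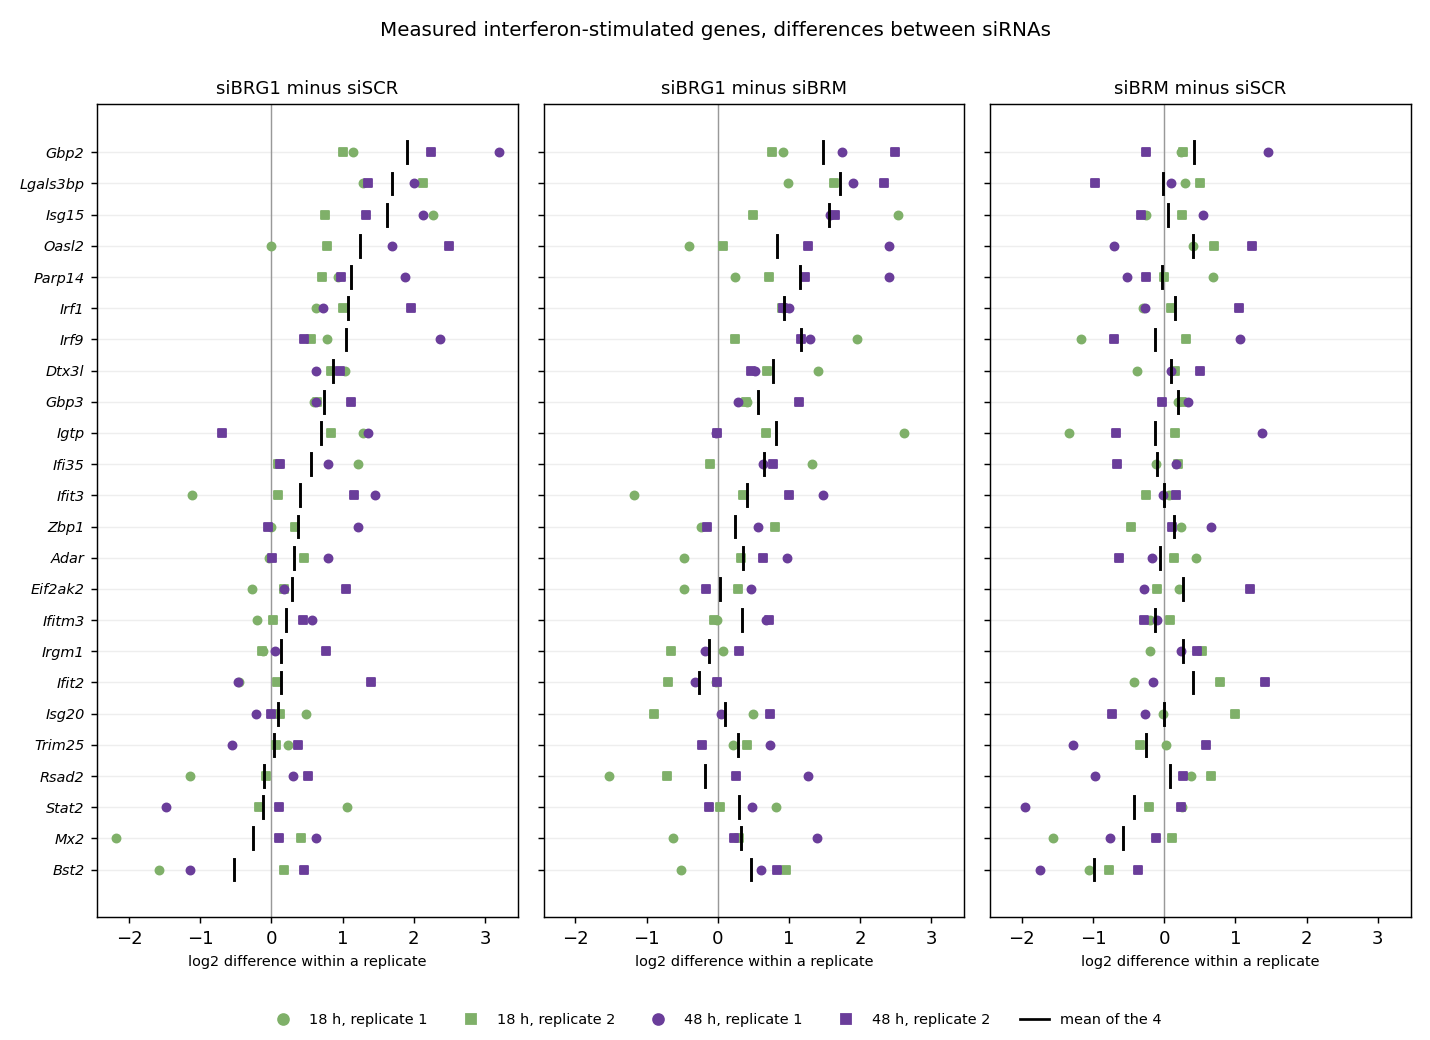
Within-replicate log2 differences of the 24 measured members for siBRG1 minus siSCR, siBRG1 minus siBRM and siBRM minus siSCR (circles replicate 1, squares replicate 2, green 18 h, purple 48 h, black bars the mean of the 4). All 4 points of Gbp2, Lgals3bp, Isg15, Parp14, Irf1, Irf9, Dtx3l and Gbp3 lie right of 0 in the first panel and in the second; some points are differences between arrays at background.

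Among the signalling members, Irf1, the transcription factor that carries much of the interferon gamma response, was the best measured. It read 12.07 and 12.11 with siSCR, 11.77 and 12.22 with siBRM and 12.69 and 13.12 with siBRG1 at 18 h (replicates 1 and 2). The 48 h values were 12.14 and 10.91 with siSCR, 11.87 and 11.96 with siBRM and 12.87 on both siBRG1 arrays. The siBRG1 arrays were above all siSCR and siBRM arrays of their time. Its difference from siSCR was 1.08 ± 0.34 over both times (limma adjusted p = 1 unblocked and 0.213 with the BeadChip block). All 5 measured probes of Irf1 were positive over both times, from 0.22 to 1.08.

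Irf9, the DNA-binding subunit of the complex with Stat2, read 7.30 and 7.51 with siSCR, 6.13 (at background) and 7.83 with siBRM and 8.08 and 8.07 with siBRG1 at 18 h. On the 48 h arrays it read 6.22 (at background) and 8.01 with siSCR, 7.28 and 7.30 with siBRM and 8.58 and 8.47 with siBRG1. It was detected on all siBRG1 arrays, which lay above the other arrays of their time. In replicate 1 at 48 h the siSCR array gives only a bound, and siBRG1 was at least 4.64-fold higher there. The difference from siSCR over both times was 1.04 ± 0.48 (limma adjusted p = 1 unblocked and 0.427 with the BeadChip block). The second measured probe of Irf9, detected on 6 arrays, gave -0.06 at 18 h but 1.62 at 48 h, so the 2 probes differ in sign at 18 h. Stat2, its partner, did not follow: its 4 differences from siSCR were 1.06 and -0.18 at 18 h and -1.48 and 0.11 at 48 h, with a mean of -0.12 ± 0.58 and 5 arrays at background.

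The ubiquitin-like modifier Isg15 and the enzymes of protein modification formed the group with the largest median, 0.99 over 4 measured members, all 4 positive. Isg15 read 5.84 (at background) and 7.95 with siSCR, 5.58 (at background) and 8.20 with siBRM and 8.11 and 8.70 with siBRG1 at 18 h. Its 48 h readings were 7.30 and 8.84 with siSCR, 7.84 and 8.52 with siBRM and 9.42 and 10.17 with siBRG1. The siBRG1 array was the highest of each set of 3, and at 48 h the groups did not overlap. At 18 h in replicate 1 the bound was at least 2.15-fold against siSCR and 2.17-fold against siBRM. Its fitted difference from siSCR over both times, with the array at background at its measured signal, was 1.62 ± 0.68 (limma adjusted p = 1 unblocked and 0.178 with the BeadChip block).

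Parp14, an ADP-ribosyltransferase, read 7.32 and 5.82 with siSCR, 8.01 and 5.81 with siBRM and 8.25 and 6.53 with siBRG1 at 18 h. At 48 h it read 6.80 and 5.94 with siSCR, 6.27 and 5.69 with siBRM and 8.68 and 6.91 with siBRG1. Both siBRM values at 48 h and the replicate 2 values of siSCR and of siBRM at 18 h were at background, and no siBRG1 value was. Against siBRM at 48 h the bound on the group means was at least 2.47-fold. The fitted difference from siSCR over both times was 1.12 ± 0.67 (limma adjusted p = 1 unblocked and 0.191 with the BeadChip block), and with the 2 siSCR arrays at background set to the lowest detected signal it was at least 2.02-fold.

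Dtx3l, a ubiquitin ligase that partners with Parp9, was detected on all 12 arrays. It read 7.90 and 7.10 with siSCR, 7.51 and 7.25 with siBRM and 8.93 and 7.94 with siBRG1 at 18 h. The 48 h values were 7.81 and 6.91 with siSCR, 7.91 and 7.41 with siBRM and 8.43 and 7.87 with siBRG1. The groups did not overlap at 18 h, and at 48 h the lower siBRG1 array lay below the higher siBRM array. Its difference from siSCR over both times was 0.86 ± 0.38 (limma adjusted p = 1 unblocked and 0.2 with the BeadChip block). The second measured probe of Dtx3l, detected on 10 arrays, gave 0.63 against siSCR at 18 h but -0.18 at 48 h, and over both times 0.22 against siSCR and 0.03 against siBRM. Trim25, the ubiquitin ligase that activates the RNA sensor encoded by Ddx58, differed by 0.03 ± 0.40.

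The GTPases attack the vacuoles and replication sites of pathogens, and 5 of the 10 listed were measured. Gbp2 read 8.63 and 6.81 with siSCR, 8.86 and 7.07 with siBRM and 9.78 and 7.83 with siBRG1 at 18 h. On the 48 h arrays it read 6.66 and 6.62 with siSCR, 8.12 and 6.37 with siBRM and 9.86 and 8.86 with siBRG1. The replicates stood apart at 18 h, where the siBRG1 array of replicate 2 lay below the siSCR array of replicate 1, and siBRG1 was the highest of its set in all 4 sets. At 48 h both siBRG1 arrays lay above all others. The difference from siSCR was 1.08 ± 0.94 at 18 h and 2.72 ± 0.94 at 48 h (limma adjusted p = 1 at both times without a block, 0.818 and 0.148 with the BeadChip block).

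Gbp3, its neighbour on chromosome 3, was at background on 8 arrays and was detected in replicate 2 only. There it read 6.03 (at background) with siSCR, 6.28 with siBRM and 6.68 with siBRG1 at 18 h, and 6.09, 6.06 (at background) and 7.20 at 48 h. In replicate 1 its values lay between 5.17 and 5.88, all at background. The replicate 2 bounds were at least 1.46-fold against siSCR at 18 h and 1.97-fold against siBRM at 48 h. The guanylate-binding genes are close copies of each other, so a probe of one may also read another.

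Igtp, an immunity-related GTPase, gave no common order. It read 7.58 and 5.58 (at background) with siSCR, 6.24 and 5.73 (both at background) with siBRM and 8.86 and 6.41 with siBRG1 at 18 h. Its 48 h readings were 7.66 and 8.31 with siSCR, 9.03 and 7.63 with siBRM and 9.01 and 7.61 with siBRG1. At 18 h siBRG1 was the highest of both sets, with a bound on the group means of at least 2.13-fold against siBRM, and at 48 h siBRG1 and siBRM differed by -0.02 and -0.01. Irgm1, a regulator of the other immunity-related GTPases, differed from siSCR by 0.14 ± 0.68 over both times. Mx2 was detected on 2 arrays only, siSCR at 18 h and siBRG1 at 48 h, both of replicate 1.

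Of the RNA sensors and effectors, 7 of 14 were measured, and all 7 had a positive difference over both times, with a median of 0.31. Oasl2, an oligoadenylate synthetase-like protein, read 7.17 and 6.80 with siSCR, 7.57 and 7.50 with siBRM and 7.16 (at background) and 7.58 with siBRG1 at 18 h. At 48 h it read 6.96 and 5.81 (at background) with siSCR, 6.25 (at background) and 7.04 with siBRM and 8.65 and 8.31 with siBRG1. The 3 groups overlapped at 18 h and siBRG1 stood above the rest at 48 h. Its difference from siSCR was 0.39 ± 0.50 at 18 h and 2.09 ± 0.50 at 48 h (limma adjusted p = 1 at both times without a block, 0.954 and 0.218 with the BeadChip block). The replicate 2 bound at 48 h was at least 4.74-fold. A second measured probe of Oasl2, detected on 2 arrays only, gave smaller differences from siSCR, 0.28 at 18 h and 0.56 at 48 h.

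Ifit3, which binds its fellow Ifit proteins and strengthens their hold on viral RNA, read 6.80 (at background) and 6.46 with siSCR, 6.87 (at background) and 6.20 with siBRM and 5.69 (at background) and 6.55 with siBRG1 at 18 h. The 48 h values were 6.62 and 6.38 with siSCR, 6.60 (at background) and 6.54 with siBRM and 8.07 and 7.54 with siBRG1. The difference from siSCR was -0.51 ± 0.46 at 18 h and 1.31 ± 0.46 at 48 h (limma adjusted p = 1 at both times without a block, 0.871 and 0.334 with the BeadChip block). Ifit3 has a near-identical copy in the mouse genome, and its probe may read both. Ifit2, from the same gene cluster, was lower with siBRG1 than with siSCR in replicate 1 (-0.46 and -0.47) and higher in replicate 2 (0.08 and 1.40).

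Among the remaining RNA effectors, Eif2ak2, Adar and Zbp1 were detected on all 12 arrays. Eif2ak2, the kinase PKR that halts translation on double-stranded RNA, read 12.50 and 11.17 with siSCR, 12.71 and 11.06 with siBRM and 12.23 and 11.35 with siBRG1 at 18 h. On the 48 h arrays it read 11.41 and 9.32 with siSCR, 11.13 and 10.52 with siBRM and 11.60 and 10.36 with siBRG1. Its difference between siBRG1 and siSCR was 0.29 ± 0.61 and between siBRG1 and siBRM 0.03 ± 0.61. Adar, which edits double-stranded RNA, differed from siSCR by 0.31 ± 0.46 and Zbp1, a sensor of nucleic acid in the Z conformation, by 0.37 ± 0.66. The 4 measured probes of Adar did not share a sign over both times, from -0.19 to 0.55. Isg20, an exonuclease, was detected on 5 arrays and differed by 0.09 ± 0.68.

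Lgals3bp, a secreted glycoprotein that binds galectins, read 9.51 and 8.36 with siSCR, 9.80 and 8.86 with siBRM and 10.79 and 10.49 with siBRG1 at 18 h. Its 48 h readings were 9.44 and 9.71 with siSCR, 9.54 and 8.74 with siBRM and 11.44 and 11.07 with siBRG1. All siBRG1 arrays lay above all siSCR and siBRM arrays of either time. Its difference from siSCR was 1.70 ± 0.54 at 18 h and 1.68 ± 0.54 at 48 h (limma adjusted p = 1 at both times without a block, 0.818 and 0.211 with the BeadChip block).

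The membrane protein Bst2, which tethers budding virions to the cell, went the other way from siSCR in replicate 1 alone. It read 6.64 (at background) and 7.45 with siSCR, 5.58 (at background) and 6.68 with siBRM and 5.06 (at background) and 7.63 with siBRG1 at 18 h. At 48 h it read 7.08 and 7.61 with siSCR, 5.33 (at background) and 7.23 with siBRM and 5.94 (at background) and 8.06 with siBRG1. The difference between siBRG1 and siSCR was -0.52 ± 0.72 over both times, and without the replicate 1 siBRG1 array at 18 h it was 0.12. Ifitm3, which blocks the entry of enveloped viruses, read 14.50 and 14.40 with siSCR and 14.29 and 14.42 with siBRG1 at 18 h, and 14.24 and 14.31 against 14.81 and 14.74 at 48 h. Its siBRG1 arrays lay above the siSCR and siBRM arrays at 48 h only, by 0.50 ± 0.36 from siSCR (limma adjusted p = 1 unblocked and 0.538 with the BeadChip block). Ifi35, which binds Nmi, read 6.36 (at background) and 8.07 with siSCR, 6.25 (at background) and 8.27 with siBRM and 7.58 and 8.15 with siBRG1 at 18 h. The 48 h values were 7.35 and 8.76 with siSCR, 7.51 and 8.10 with siBRM and 8.14 and 8.88 with siBRG1, and its difference from siSCR was 0.55 ± 0.58 over both times. The siBRG1 and siSCR groups of Ifi35 overlapped at both times.

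**Figure D3:**
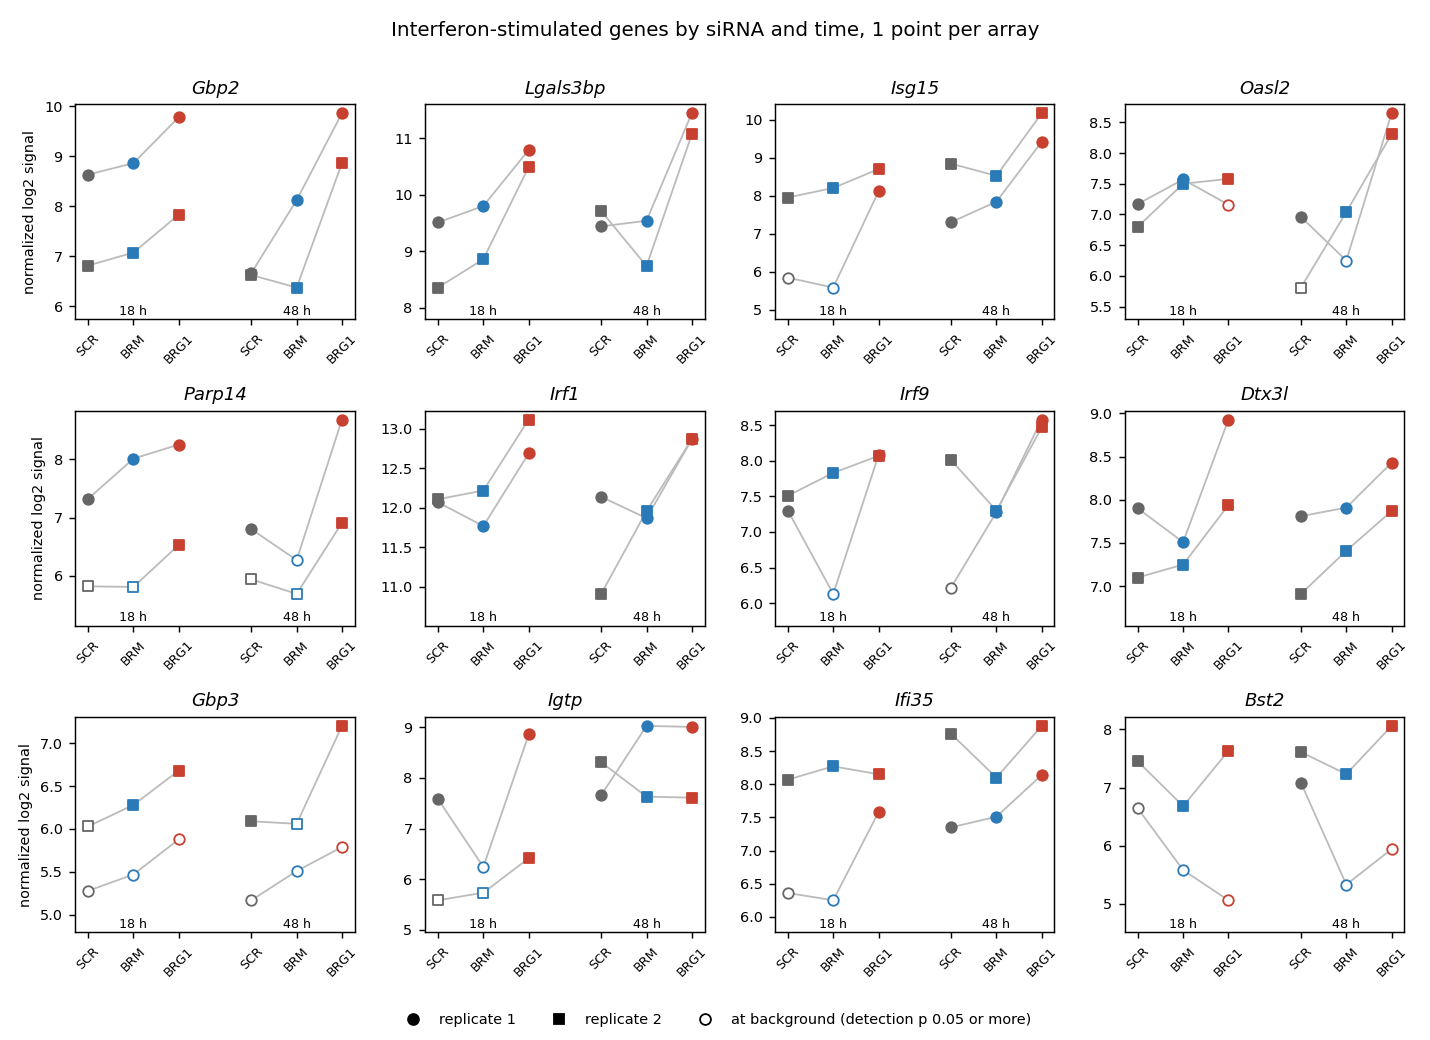
Normalized log2 signal of the 12 members with the largest absolute difference between siBRG1 and siSCR over both times, 1 point per array (circles replicate 1, squares replicate 2, joined within a time, open symbols at background). Lgals3bp is highest on the siBRG1 arrays in every set (10.49 to 11.44), Oasl2 separates at 48 h only, and Bst2 reads 5.06 and 5.94 on the replicate 1 siBRG1 arrays, at background.

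Set against siBRM, which targets the alternative ATPase and shares the transfection, siBRG1 gave a similar list. Both comparisons use the same siBRG1 arrays, and their values are given side by side for that reason. Over both times the differences from siBRM were 1.71 ± 0.38 for Lgals3bp, 1.57 ± 0.68 for Isg15 and 1.48 ± 0.67 for Gbp2, where those from siSCR were 1.69, 1.62 and 1.90. They were 1.17 ± 0.48 for Irf9, 1.15 ± 0.67 for Parp14, 0.93 ± 0.34 for Irf1, 0.83 ± 0.35 for Oasl2, 0.77 ± 0.38 for Dtx3l and 0.56 ± 0.44 for Gbp3. The member median was 0.44 and 21 of 24 were positive, where all genes had a median of 0.01 and 52% were positive. That median fell to 0.20 without background correction and on the authors' values, and to 0.28 without a filter.

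The limma model without a block called 0 of 24 members in siBRG1 against siBRM at 18 h, at 48 h and over both times (0% of all genes), with 1, 3 and 5 members at an unadjusted p under 0.05 (1.35%, 1.88% and 2.55% of all genes). The fixed BeadChip block also called 0, with 6, 10 and 10 members at an unadjusted p under 0.05 (6.78%, 8.08% and 10.1%). With the BeadChip as a random block, 1 member rose: Lgals3bp, by 2.11 at 48 h (limma adjusted p = 0.0374, 0.12% of all genes) and by 1.71 over both times (limma adjusted p = 0.0233, 0.166%). Over the settings that kept all 12 arrays and did not average probes, its lowest limma adjusted p was 0.0144 at 48 h and 0.00923 over both times. The model without a block called it at neither. The 2 siBRG1 arrays lay above the 2 siBRM arrays for 5 members at 18 h (6.63% of all genes) and 12 at 48 h (9.8%), and below them for 1 member at each time (7.31% and 9.74%). The 12 included Mx2 and Rsad2, each detected on only 1 of those 4 arrays. Within sets, 8 members were higher with siBRG1 than with siBRM in all 4 (11.3% of all genes), and 1, Ifit2, was lower in all 4 (10.4%), with a mean of -0.26. The second measured probe of Ifit2, detected on 10 arrays, had the opposite sign, 0.36.

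Between siBRM and siSCR no member passed the test, and the members were about evenly split in sign. The median was 0.03 at 18 h and 0.10 at 48 h, where all genes had -0.01 and 0.03, and 13 of 24 were positive at each time. Taken within replicates 1 and 2, the member medians were 0.00 and 0.15 at 18 h but -0.13 and -0.08 at 48 h. At 48 h, 3 members were higher in both replicates (21% of all genes) and 6 were lower in both (16.5%). Differences of more than 1 were seen for 0 members at 18 h (2.66% of all genes) and for 1 at 48 h (1.09%), Bst2, at -1.06 ± 1.01. The limma model called 0 members at either time without a block or with any of the 3 blocks (0% of all genes), and at an unadjusted p under 0.05 it had 0 members at either time without a block (0.314% and 0.157% of all genes) and with the BeadChip block (2.58% and 2.24%). The siBRM arrays both lay above the siSCR arrays for 2 members at 18 h (4.93%) and 0 at 48 h (5.4%), and both below for 0 (5.19%) and 2 (5.67%). Gbp2 differed by 0.25 ± 0.94 and 0.60 ± 0.94, Lgals3bp by 0.39 ± 0.54 and -0.43 ± 0.54 and Isg15 by -0.01 ± 0.96 and 0.12 ± 0.96 at 18 h and 48 h. Bst2 was lower with siBRM in all 4 sets, by -1.06, -0.78, -1.75 and -0.37, with both replicate 1 siBRM arrays at background.

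The median difference between siBRG1 and siSCR was 0.34 at 18 h and 0.54 at 48 h (all genes -0.00 and 0.04). The median of the members' own changes in effect was 0.47, where all genes had 0.05. The effect at 48 h was larger than that at 18 h by 1.82 ± 0.65 for Ifit3 and by 1.70 ± 0.71 for Oasl2 (limma adjusted p = 1 for both without a block). The within-replicate changes were 2.56 and 1.07 for Ifit3 and 1.69 and 1.72 for Oasl2. Some of these rest on arrays at background: both 18 h arrays of replicate 1 for Ifit3, and for Oasl2 the siBRG1 array of replicate 1 at 18 h and the siSCR array of replicate 2 at 48 h. The Ifit3 change of 1.07 in replicate 2 is between detected arrays. These were the 2 members at an unadjusted p under 0.05 (0.563% of all genes), and 0 members were called with or without a block (0%). For Gbp2 the change was 1.63 ± 1.34 (limma adjusted p = 1 unblocked and 0.918 with the BeadChip block), and for Lgals3bp it was -0.03 ± 0.77. The ISRE windows shown above belong to genes of either course: Ifit3 had no positive mean difference at 18 h, while Isg15 differed by 1.51 ± 0.96 at 18 h and 1.73 ± 0.96 at 48 h.

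In control cells the members were also compared between the times of differentiation. Between 48 h and 18 h with siSCR the member median was -0.18 (all genes -0.06), with 7 of 24 positive. The model without a block called 0 members, where 0.304% of all genes were called higher and 0.0184% lower. The replicate 1 arrays of the 2 times lie on different BeadChips, so that time and BeadChip cannot be told apart there, and only replicate 2 compares the times within 1 BeadChip. Eif2ak2 read lower at 48 h in both replicates, by -1.09 in replicate 1 and -1.85 in replicate 2, with a mean of -1.47 ± 0.86 (limma adjusted p = 1 unblocked and 0.164 with the BeadChip block). Igtp differed by 1.41 ± 0.95, of which replicate 2 gave 2.73 and replicate 1 gave 0.08.

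The genes upstream of the members were read from a list of 32 ligands, receptors, kinases, transcription factors, sensors, adaptors and negative regulators, of which 22 were measured. None passed limma's test in siBRG1 against siSCR over both times without a block or with the fixed or random BeadChip block (0 higher, 0 lower). At an unadjusted p under 0.05 the model without a block had 0 of 22 (2.72% of all genes). The fixed BeadChip block had 3 of 22 (11.4% of all genes), which is near the share of all genes. The list's median difference was 0.13 and 19 of 22 were positive, where all genes had 0.02 and 53.1%.

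Ddx58, which encodes the RNA sensor RIG-I and is itself induced by interferon, differed by 0.67 ± 0.38, with 0.46, 0.77, 0.69 and 0.76 in the 4 sets. Myd88, the adaptor of Toll-like receptors, differed by 0.54 ± 0.37, with 0.40, 0.23, 0.92 and 0.61. Socs3, an inhibitor of cytokine receptor signalling, differed by -0.03 and 0.22 at 18 h and by 0.76 and 1.12 at 48 h. These were the 3 at an unadjusted p under 0.05 with the BeadChip block (limma adjusted p = 0.462, 0.347 and 0.367).

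Among the ligands, Ifna1 was measured, and its difference was 0.13 ± 0.74. Its probe was at background on 5 of the 6 replicate 2 arrays, and close copies in the interferon alpha family may share it. Ifnb1, Ifna2, Ifna4 and Ifng did not pass the detection rule, nor did the receptor chain Ifnar1. The receptor chains Ifnar2, Ifngr1 and Ifngr2 differed by -0.07 ± 0.53, 0.06 ± 0.29 and 0.16 ± 0.33, and the kinases Jak1, Jak2 and Tyk2 by 0.07 ± 0.36, 0.31 ± 0.33 and 0.03 ± 0.32. Irf3, the factor that starts interferon transcription, differed by 0.10 ± 0.27, the DNA sensor Cgas by 0.32 ± 0.62 and its adaptor Sting1 by -0.03 ± 0.28.

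**Figure D4:**
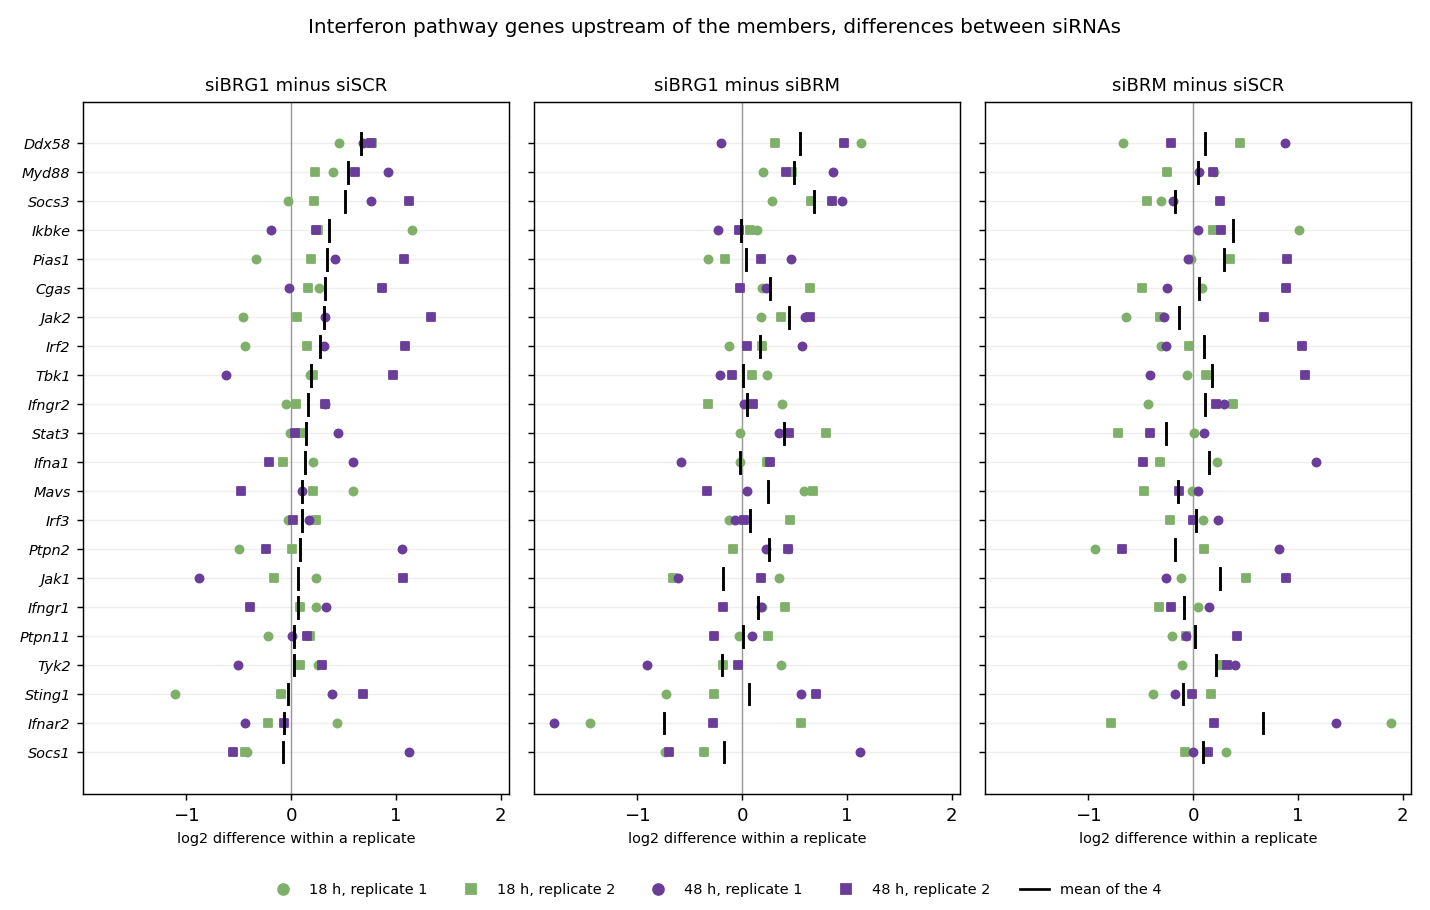
Within-replicate log2 differences of the 22 measured genes of the interferon pathway list for the 3 pairs of siRNAs (circles replicate 1, squares replicate 2, green 18 h, purple 48 h, black bars the mean of the 4). Ddx58 and Myd88 lie right of 0 in all 4 sets of siBRG1 minus siSCR, and most other means lie within 0.37 of 0.

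Other values moved with siBRG1 beside the members. The signal summed over all 8 myoblast and early myotube markers, Myf5 included, was 47900 and 43500 with siSCR and 50100 and 38900 with siBRM at 18 h, against 36800 and 30400 with siBRG1. At 48 h it was 90800 and 114000 with siSCR and 88800 and 94800 with siBRM, against 62500 and 60600 with siBRG1. Over both times Mymk, the myomaker of fusing myoblasts, differed by -1.22 ± 0.63 and Myod1, the myogenic factor, by -1.05 ± 0.65. The part of this shift in differentiation markers in the member differences was not tested, and fewer cells of a type and less RNA per cell cannot be told apart in these samples. Of 8 leukocyte and macrophage markers, 7 had a probe, 5 were detected on no array, Ptprc, Adgre1 and Itgam among them, and Csf1r and Cd14 were measured. The signal summed over all 7 probes, those at background included, was 894 and 811 with siSCR, 1150 and 803 with siBRM and 1300 and 693 with siBRG1 at 18 h, and 677 and 469, 839 and 491, and 979 and 561 at 48 h. Of 4 endothelial markers, 3 were detected on no array and Kdr was measured, and the signal summed over all 4 ran from 182 to 449.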

How the data were processed

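RNA of 12 C2C12 samples in 6 groups of 2 was read on Illumina mouse BeadChips. The deposited intensities are bead-averaged signals per probe on a linear scale, not normalized, and the deposited detection p-values set each probe against its array's negative controls. Per the file headers, bead numbers and bead standard errors are in the same table and were not used. The authors' second table of intensities has nearly equal medians on every array (from 248.7 to 249.3) and served as an alternative. GenomeStudio 2009.1 is named in the submitters' processing notes, with nothing said of later steps.

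Of 45281 probes, 34885 had 1 gene symbol, 18 several and 10378 none listed. In limma 3.58.1 (R 4.3.3, statmod 1.5.0), background was removed with normexp inferred from the detection p-values (offset 16), arrays were quantile normalized and signals taken to log2. The detection filter left 20415 probes, and a gene was read from its probe with the highest mean. The model gave each group a mean without a block (6 residual degrees of freedom), with two-sided moderated tests adjusted by Benjamini-Hochberg over the tested probes at 0.05. Replicate numbers pair the arrays, from the check of deviations in the text, so blocked fits took the BeadChip as a fixed term (4 degrees of freedom) or random term (correlation 0.674), or the replicate number (5). Residual variance had a median of 0.441 unblocked and 0.110 under the fixed BeadChip term, and standard errors in the text come from the unblocked fit. A bound sets a detected signal against the lowest detected signal of an array at background. The number of arrays limits the precision. Values per array are given for members called in a fit with or without a block and for the 12 largest absolute differences between siBRG1 and siSCR over both times. The scripts were tested on simulated data. Alternatives were other background correction, normalization, filters, probe choice, the authors' values and leaving out arrays. The members and lists were chosen with earlier results of these data known. Ifit3, Ifitm3, Eif2ak2 and the remaining members described by array were added to that rule after their values were seen. Promoter windows came from RefSeq (GRCm38.p6), matched by symbol.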

Additional observations from a re-analysis of the deposited data

Results flagged for a closer look

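For 3 of the 24 members, both replicates moved one way with siBRG1 against siSCR at 18 h and both the other way at 48 h. The share of all genes with such a turn was not counted. At 18 h 29.8% of all genes were higher and 29.7% lower in both replicates, and at 48 h 30% and 24.1%. A turn in 3 members is therefore not set apart from all genes. The exonuclease Isg20 differed by 0.48 and 0.12 at 18 h and by -0.22 and -0.01 at 48 h, so that the effect at 48 h minus that at 18 h was -0.41 ± 1.35. Rsad2, the antiviral enzyme viperin, differed by -1.15 and -0.07 at 18 h and by 0.30 and 0.51 at 48 h, a change of 1.02 ± 0.75. Irgm1, a regulator of immunity-related GTPases, differed by -0.12 and -0.13 at 18 h and by 0.05 and 0.76 at 48 h, a change of 0.53 ± 1.37. The limma test of each change gave an adjusted p of 1 without a block, and of 0.938, 0.918 and 0.92 with the BeadChip block. Isg20 was detected on 5 arrays and Rsad2 on 3, so several of these differences are between arrays at background. The second measured probe of Irgm1 differed by 0.31 at 18 h and 1.33 at 48 h, without the turn in sign.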

How the results depend on the processing

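The number of arrays (2 per group) and the nearness of many members to background limit these values, and the cause of the shifts below was not tested. The median over the measured members for siBRG1 against siSCR stayed positive at 18 h, at 48 h and over both times under every setting tried, and its size moved. Not every setting could move it: a block with all arrays kept leaves these differences unchanged, as does leaving out a siBRM array. At 18 h it was 0.34, against 0.14 without background correction, 0.17 with median scaling, 0.13 on the authors' values, 0.17 over members detected on all 12 arrays, 0.10 without a filter and 0.30 with probes averaged. The 48 h median was 0.54, against 0.36, 0.28, 0.36, 0.58 and 0.41 under the first 5 of these. Over both times it was 0.39, against 0.17 with median scaling, 0.21 without a filter and 0.22 without background correction and on the authors' values. The effect at 48 h minus that at 18 h was 0.47, against 0.30 without background correction and on the authors' values, 0.33 with median scaling and 0.25 without a filter.

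For siBRG1 against siBRM at 48 h the median was 0.72, against 0.30 without background correction and on the authors' values, 0.67 with median scaling, 0.49 over members detected on all 12 arrays and 0.34 without a filter. At 18 h it was 0.30, against 0.10, 0.10 and 0.09 under the first 3 of these, and without a filter it turned to -0.03. Over both times it was 0.44, against 0.20 without background correction and on the authors' values and 0.28 without a filter. For siBRM against siSCR the 48 h median of 0.10 was 0.02 without background correction and on the authors' values and 0.35 over members detected on all 12 arrays, and it turned to -0.20 with median scaling, -0.06 without a filter and -0.02 with probes averaged. The 18 h median of 0.03 was 0.14 with median scaling. For siSCR at 48 h against 18 h the median of -0.18 was -0.07 without background correction and on the authors' values, -0.19 over members detected on all 12 arrays, -0.08 without a filter and -0.14 with probes averaged, and it turned to 0.11 with median scaling. Median scaling also moved the median of all genes, to -0.18 for siBRG1 against siSCR at 48 h, -0.11 for both times and for siBRG1 against siBRM at 18 h, -0.26 for siBRM against siSCR at 48 h, -0.14 for the effect at 48 h minus 18 h and 0.27 for siSCR over time, so the member medians there are to be read against these.

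With all 12 arrays, a block cannot move the differences between siRNAs, because each set of 3 lies on 1 BeadChip, so their medians stayed in place. The siSCR time median became -0.23 with the BeadChip as a fixed block and -0.22 as a random block. With the fixed block it was also -0.11 without background correction and on the authors' values, -0.06 with median scaling and -0.23 over members detected on all 12 arrays. Pairing by replicate number and the fixed BeadChip block alone each called 0 members in every comparison, as the model without a block did. Over all genes they called 0 in each siRNA comparison, while for siSCR at 48 h against 18 h the genes called went from 35 without a block to 178 with the fixed BeadChip block and 286 with the replicate block. With the random block, calls over both times came to 2 against siSCR and 1 against siBRM, and at 48 h to 1 against siBRM. The fixed block without background correction called 3 members against siSCR at 48 h, 4 over both times, and 3 against siBRM at 48 h and over both times, the numbers the authors' values gave. With median scaling these counts were 5, 4, 4 and 4. For siSCR over time that setting called 1 of 24 members higher (Igtp), where 451 of 10842 genes were called higher. Over genes detected on all 12 arrays they were 1, 2, 1 and 2 of 11 members, where 16, 30, 7 and 19 of 6464 genes were called higher.

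Leaving out 1 array at a time, with or without the block, gave medians for siBRG1 against siSCR of 0.19 (without siSCR 18 h replicate 2) to 0.47 at 18 h, 0.53 to 1.0 (without siBRG1 48 h replicate 2) at 48 h and 0.27 to 0.57 over both times, and 0.27 to 0.59 for the effect at 48 h minus 18 h. Against siBRM they ran from 0.03 (without siBRM 18 h replicate 1) to 0.67 (without siBRM 18 h replicate 2) at 18 h, from 0.59 to 0.92 at 48 h and from 0.37 to 0.68 over both times. For siBRM against siSCR they ran from -0.26 to 0.22 at 18 h and from -0.19 to 0.10 at 48 h, and for siSCR over time from -0.39 to 0.01. Each of these fits leaves 1 array in a group, so their calls are not given. With the block and without siSCR 48 h replicate 1, the siSCR differences over time were -1.87 for Eif2ak2, -1.91 for Ifit2 and -1.34 for Irf1. The Bst2 difference between siBRG1 and siSCR ran from -1.16 to 0.12, and was 0.01 without siBRG1 48 h replicate 1 and 0.12 without siBRG1 18 h replicate 1.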
